A study of Mus musculus with 6 samples.

Results

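Somatostatin interneurons of the mouse frontal lobe were represented by 240 nuclei among 30840 kept nuclei, drawn from 39752 barcodes in 6 libraries. A barcode was kept with at least 500 genes and at most 5% of its unique molecular identifiers (UMIs, counts of single captured transcripts) from mitochondrial genes. A kept nucleus was a member, called here a Sst nucleus, with at least 5 Sst UMIs and at least 1 UMI of Gad1 and Gad2 together, the genes for the enzymes that make GABA. It could hold at most 1 UMI of Slc17a7 and Slc17a6 together (vesicular glutamate transporters), at most 2 of Rgs9 and Adcy5 together (striatal projection neurons), and fewer than 3 of Vip. All mice carried Tg-SwDI, a transgene for human amyloid precursor protein with the Swedish, Dutch and Iowa mutations, driven in neurons by a Thy1 promoter. In one group (SwDI/TWT, 3 mice) Trem2 was wild type, and in the other (SwDI/TKO, 3 mice) Trem2, a receptor of microglia, was knocked out. Each mouse gave 1 library, so tests measured the spread between single mice, and neither group was free of the transgene. Age, sex, the knockout allele and the cortical or striatal origin of a nucleus were not given in the sources used here.

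Somatostatin interneurons arise in the medial ganglionic eminence of the embryonic forebrain under the transcription factors Lhx6, Sox6 and Satb1. They release GABA onto the dendrites of nearby neurons and store the peptide somatostatin in dense-core vesicles, often with neuropeptide Y or cortistatin. Long-range projecting cells with Nos1 and Chodl and locally projecting cells with Calb1, Calb2 or Reln are well-known types. Somatostatin also raises the activity of neprilysin, an enzyme that degrades amyloid beta, which makes these cells of interest in amyloid mice.

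Transcription of Sst is a textbook case of control through the cAMP response element, the palindrome TGACGTCA, so stretches of 30 bases around this motif, or around its first 5 bases (TGACG) on either strand, are shown for genes described below. They come from RefSeq on GRCm38.p6 and are read 5′ to 3′ on the strand of the gene, with the match in capitals.
Sst: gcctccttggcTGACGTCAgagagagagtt
Crhbp: gagctggaccctCGTCAttgccacgcattt
Cort: ctccggcttgtgCGTCAccgcgtgagtgtg
Scg3: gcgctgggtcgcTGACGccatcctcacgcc
Nos1: aaaccagccatgCGTCAggcttggcttcag
The Sst stretch (chr16:23890874-23890903, minus strand) held the whole palindrome, starting 48 bases before the RefSeq gene start, and lay inside the longer GENCODE M21 gene model (chr16:23889573-23890958). Crhbp (chr13:95444878-95444907, minus strand), Cort (chr4:149126764-149126793, minus strand) and Scg3 (chr9:75684069-75684098, minus strand) held the 5-base part, starting 64, 18 and 30 bases before their starts. The Crhbp stretch also lay inside its GENCODE gene model (chr13:95431371-95444924). In Nos1 (chr5:117866697-117866726, plus strand) the match lay 130 bases before a RefSeq start within the GENCODE gene model (chr5:117781032-117958840). Of 32851 windows of 250 bases before RefSeq starts, 508 (1.55%) held the palindrome and 5836 (17.8%) held the 5-base part on either strand. The windows of Npy, Gad1 and Resp18 held neither string. A match is a description of letters, and binding was not measured.

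Total depth was 11493087 to 17835287 UMIs in 5 libraries, made with Cell Ranger 6.1.2, and 51317961 in SwDI/TKO replicate 1, made with version 7.0.0. By default version 7.0.0 counts intronic reads and 6.1.2 does not, but no label or header states which setting was used. The software version and that library cannot be told apart, and results are given with and without it. Sst nuclei of SwDI/TKO replicate 1 had a median of 7450.5 UMIs, against 2865 to 4663 elsewhere, and Malat1 made up 7.56% of their UMIs, against 13.2% to 24.2%. Any pair of libraries shared 8 to 18 barcodes, and no member had a shared barcode. Trem2 over all kept nuclei was 20.4, 12.3 and 9.42 CPM (counts scaled to the sum of each library or class) in SwDI/TWT and 2.92, 11.2 and 5.76 CPM in SwDI/TKO, so the groups overlapped. Whether 3′-end counts read the deleted part of the gene is not given, and these levels do not check the labels.

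The number of Sst nuclei was 33, 51 and 46 in SwDI/TWT replicates 1 to 3 and 74, 17 and 19 in SwDI/TKO replicates 1 to 3. At least 5 Sst UMIs were found in 389 kept nuclei, of which 124 had no Gad1 or Gad2 UMI and 25 failed another condition. By library the 389 were 44, 82 and 94 nuclei in SwDI/TWT and 92, 37 and 40 in SwDI/TKO. The 124 were 9, 28 and 44 and 8, 20 and 15, so the Gad1 and Gad2 condition removed unlike parts of the libraries. Those 124 nuclei were shallower (median 2902 UMIs, against 4423.5 in members), and 77.4% of them held Npy and 43.5% Lhx6, against 72.5% and 45.4% of members. Just outside the Sst limit, 38 nuclei with 3 UMIs and 41 with 4 held Npy in 39.5% and 34.1%. Just inside it, 15 nuclei with 5 UMIs and 16 with 6 held Npy in 40% and 37.5%. Crhbp was in 15.8%, 22.0%, 26.7% and 37.5% of the nuclei with 3, 4, 5 and 6 Sst UMIs. Most members lay well above it, 153 with 10 or more Sst UMIs and 87 with 5 to 9, while 59 rested on a single UMI of Gad1 or Gad2.

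Since Sst chose the members, its level is a description only. Sst, the gene for the somatostatin precursor, stood at 5618, 9077 and 5716 CPM in the Sst nuclei of SwDI/TWT and at 1528, 3266 and 4462 CPM in SwDI/TKO. The median member held 14, 15 and 14.5 Sst UMIs in SwDI/TWT and 10, 10 and 13 in SwDI/TKO. Single nuclei reached 239 Sst UMIs in SwDI/TWT replicate 2 and 163 in SwDI/TKO replicate 3. Every SwDI/TKO library lay below every SwDI/TWT library on both measures. Gad1 was found in 84.8%, 62.7% and 47.8% of Sst nuclei in SwDI/TWT and in 68.9%, 41.2% and 68.4% in SwDI/TKO.

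The markers that the rule did not use fitted the name. At least 1 UMI of Npy, Crhbp or Lhx6 was found in 219 members (91.3%), and 21 had none. Npy, for neuropeptide Y, was detected in 72.7%, 78.4% and 82.6% of Sst nuclei in SwDI/TWT and in 55.4%, 88.2% and 84.2% in SwDI/TKO. Glutamatergic nuclei serve as a floor: Npy was found in 2.67% to 5.67% of them. Their median depth of 3487 to 11867 UMIs was above that of the Sst nuclei in every library but SwDI/TKO replicate 3 (4646 against 4663). The source of the Npy counts in glutamatergic nuclei, such as free RNA, was not tested. Crhbp, whose protein binds corticotropin-releasing hormone, was found in 60.6%, 37.3% and 39.1% and in 41.9%, 35.3% and 52.6%, and in no more than 1.21% of glutamatergic nuclei in any library. Lhx6 was found in 45.5%, 39.2% and 34.8% and in 51.4%, 52.9% and 57.9%. Lhx6 and Crhbp had no UMI in any Vip nucleus, although 0 of 69 in SwDI/TKO replicate 1 allows a share of nuclei with a UMI of up to 4.35%, and 0 of 10 in SwDI/TKO replicate 3 of up to 30%. These limits take 3 counts over the number of nuclei and cover counting error only. Nuclei of other types also held some Sst, with at least 1 UMI in 3.30% to 11.6% of glutamatergic nuclei.

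**Figure D1:**
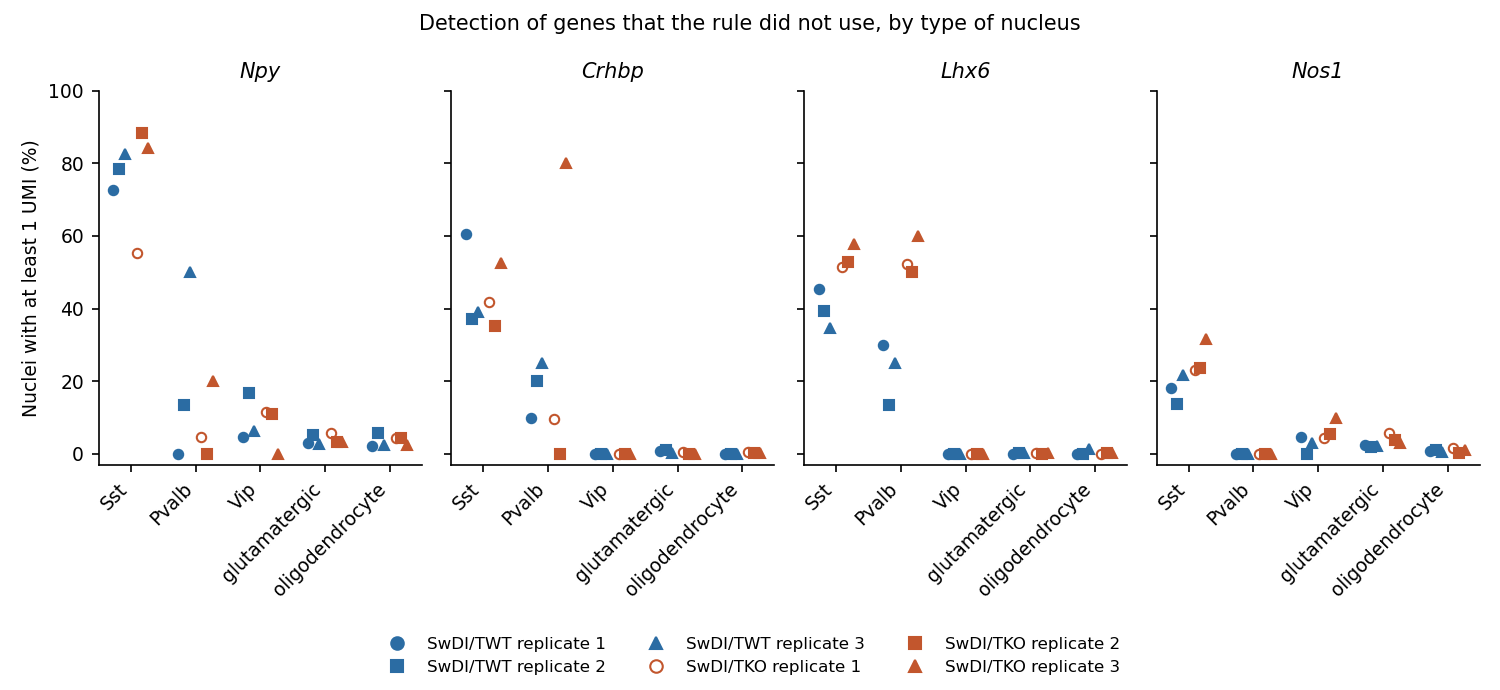
Share of nuclei with at least 1 UMI (%, vertical axis) of the marker genes in Sst nuclei and comparison classes, 1 point per library. Npy lies at 55.4% to 88.2% in Sst nuclei and at 2.67% to 5.67% in glutamatergic nuclei, and Lhx6 and Crhbp are at 0 in Vip nuclei.

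Transcripts on lists that mark other cell types were present at low to moderate levels in the Sst nuclei. These lists are not exclusive: the caudal-type list holds Reln and Calb2 and the parvalbumin list Kcnc1 and Tac1, genes that Sst nuclei also hold. Sums over the caudal-type and parvalbumin lists thus do not measure other cell types alone. Among GABAergic classes, the 6 striatal projection neuron markers summed to 301 to 911 CPM over the libraries, the 8 caudal-type interneuron markers to 342 to 924 CPM and the 7 parvalbumin interneuron markers to 396 to 979 CPM, with the highest sum of each in SwDI/TKO replicate 1. The 7 excitatory markers summed to 7.52 to 24.8 CPM in SwDI/TWT and 19.6 to 68.3 CPM in SwDI/TKO. The 7 microglia markers summed to 18.6 to 51.9 CPM and to 78.5 to 232 CPM, with every SwDI/TKO library above every SwDI/TWT library and none of the 7 genes at 0 in all libraries. None of the 7 passed the filter on low counts of the genotype test below, where 12.8% of all genes separated the groups in either direction. The part of these microglia transcripts in the genotype differences given below was not tested. Astrocyte (6 genes) and oligodendrocyte (6 genes) sums overlapped between groups, at 29.4 to 150 and 88.3 to 489 CPM over the libraries.

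The members differed among themselves. Npy was concentrated in a few nuclei: the 5 nuclei richest in Npy held 71.9%, 49.2% and 67.4% of all Npy UMIs of the Sst nuclei in SwDI/TWT, and 50.3%, 81.0% and 78.8% in SwDI/TKO. The ratio of Npy to Sst UMIs was 0.481, 0.361 and 0.446 in SwDI/TWT and 0.204, 0.485 and 0.435 in SwDI/TKO, with SwDI/TKO replicate 1 alone standing low. Cortistatin (Cort), a close relative of somatostatin, was sparse, with 9, 8 and 10 UMIs in SwDI/TWT and 13, 1 and 8 in SwDI/TKO. It was found in 16.1% of members with Npy and in 6.06% of those without, with depth not matched.

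Nos1, for neuronal nitric oxide synthase, was present in a minority of the members. It was at 0 in 190 members, at 1 UMI in 12, at 2 in 11, at 3 to 5 in 12 and at 6 or more in 15. The line was set at 2 UMIs, a cut chosen after the values were seen. It parts the 12 nuclei at 1 UMI from the 11 at 2, with 38 members on or above it and 202 below. The 38 came from every library, at 15.2%, 13.7% and 17.4% of the Sst nuclei in SwDI/TWT and 13.5%, 23.5% and 21.1% in SwDI/TKO. Pooled over the libraries, their depth was like that of the others (median 4621 against 4391 UMIs). In SwDI/TKO replicate 1 they held 5156, 5585, 5920, 7223, 10044, 12500, 13430, 14065, 15964 and 20090 UMIs. The median over all Sst nuclei of that library was 7450.5, so depth was not matched within it.

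Members with 2 or more Nos1 UMIs more often held Npy and Chodl, genes known for the long-range type. Npy was in 92.1% of them, with a median of 17 UMIs, against 68.8% and a median of 2 in the other members. Chodl, the chondrolectin gene that defines this type, was in 28.9% against 2.48%. Of the factors named above for all somatostatin interneurons, Sox6 was in 89.5% against 57.9% and Lhx6 in 65.8% against 41.6%. Satb1, the other such factor, was less frequent, in 42.1% against 60.9%, as was Crhbp, in 28.9% against 46.0%. In SwDI/TWT replicate 1 alone Lhx6 was also less frequent (40% against 46.4%). Satb1 was not less frequent in SwDI/TKO replicate 1 (90% against 85.9%), nor was Crhbp in SwDI/TKO replicate 2 (50% against 30.8%). Genes of locally projecting types were less frequent: Calb1, for the calcium buffer calbindin, was in 18.4% against 48.0%, Reln, for the secreted protein reelin, in 21.1% against 51.0%, and Elfn1, a postsynaptic adhesion gene, in 26.3% against 46.0%. Grin3a, for an NMDA receptor subunit, was in 71.1% and 74.8%. In SwDI/TKO replicate 1 alone, where 10 of 74 members had 2 or more Nos1 UMIs, Reln was in 60% against 65.6%, Elfn1 in 50% against 51.6% and Sox6 in 100% against 90.6%. In the other 5 libraries together Reln was in 7.14% against 44.2%, Elfn1 in 17.9% against 43.5% and Sox6 in 85.7% against 42.8%. Among them, Elfn1 was not less frequent in SwDI/TWT replicate 3 (37.5% against 34.2%). Within the remaining variety, Calb1 was in 56.7% of members with Crhbp and 33.1% of those without. Calb2 (calretinin) was in 12.5% of members with Calb1 and 1.47% of those without. In SwDI/TKO replicate 2 alone Calb1 was not more frequent with Crhbp (33.3% against 36.4%). No member of that library or of SwDI/TWT replicate 2 held Calb2. Depth was not matched for these pairs. Except where libraries are named, the shares pool nuclei of all 6 mice, and all are given without a test.

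**Figure D2:**
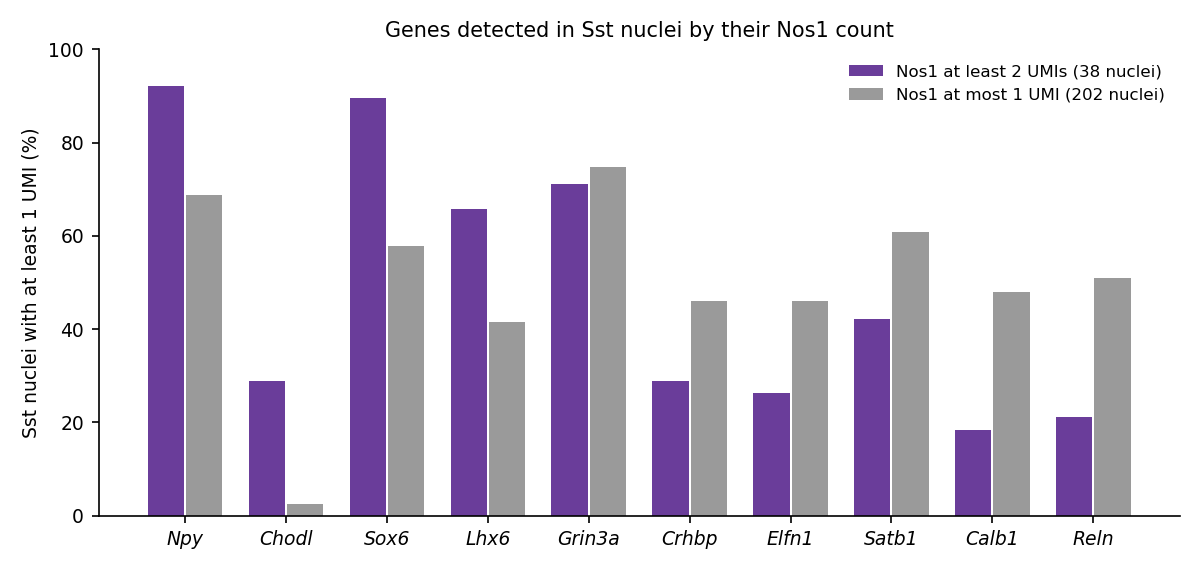
Share of Sst nuclei with at least 1 UMI of each gene (%), for the 38 nuclei with 2 or more Nos1 UMIs and the 202 with fewer. Npy, Chodl, Sox6 and Lhx6 are higher in the 38 nuclei (Npy 92.1% against 68.8%), and Calb1, Reln, Elfn1, Satb1 and Crhbp are lower (Calb1 18.4% against 48.0%).

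Receptors for peptides were near the limit of detection: none of the 26 listed genes for somatostatin and other peptide receptors passed the expression filter, and Sstr4, Sstr5 and Ntsr1 had no UMI. Chrna2 and Myh8, markers of deep-layer Martinotti cells, also had none.

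The first question of the design was whether loss of Trem2 went with a change in the number of Sst nuclei. They made up 0.738%, 0.982% and 0.872% of kept nuclei in SwDI/TWT (95% Clopper-Pearson intervals 0.509 to 1.04, 0.732 to 1.29 and 0.639 to 1.16) and 0.965%, 0.408% and 0.467% in SwDI/TKO (0.759 to 1.21, 0.238 to 0.653 and 0.281 to 0.728). Replicates 2 and 3 of SwDI/TKO were the lowest, and the deeper replicate 1 lay among the SwDI/TWT libraries. The means were 0.864% ± 0.122 (SD, n = 3) and 0.613% ± 0.306 (SD, n = 3), a difference within the spread of the libraries (exact permutation test, two-sided, p = 0.3; smallest possible 0.1). Without SwDI/TKO replicate 1 the SwDI/TKO mean was 0.438% ± 0.0414 (SD, n = 2, exact permutation p = 0.2, the smallest possible).

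A deeper nucleus reaches 5 Sst UMIs, and 1 UMI of Gad1 or Gad2, more easily. The rule was thus also applied after thinning each nucleus to 2000 UMIs and leaving out shallower ones. This kept 1970, 3204 and 3303 nuclei in SwDI/TWT and 6155, 2091 and 2698 in SwDI/TKO. Sst nuclei were then 1.07%, 0.905% and 0.545% in SwDI/TWT and 0.211%, 0.335% and 0.482% in SwDI/TKO. These shares rest on 21, 29 and 18 nuclei in SwDI/TWT and 13, 7 and 13 in SwDI/TKO, from a single random draw. At equal total UMIs the library values of the groups did not overlap, with or without SwDI/TKO replicate 1. The nearest libraries, SwDI/TWT replicate 3 and SwDI/TKO replicate 3, had overlapping Clopper-Pearson intervals (0.323 to 0.860 and 0.257 to 0.823). SwDI/TKO replicate 1 moved from the second highest to the lowest share. Only total UMIs were matched, and whether 2000 UMIs of that library hold the same kinds of transcript as in the others was not tested. The means were 0.839% ± 0.267 and 0.343% ± 0.135 (SD, n = 3 each, exact permutation p = 0.1, the smallest possible), and the SwDI/TKO mean was 0.408% without replicate 1 (exact permutation p = 0.2).

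As a share of GABAergic nuclei (Gad1 or Gad2 present and the same limits on glutamatergic and striatal genes), Sst nuclei were 2.66%, 6.66% and 5.49% in SwDI/TWT and 6.26%, 1.74% and 2.26% in SwDI/TKO (exact permutation p = 0.4, n = 3 each). At 2000 UMIs these shares were 5.16%, 5.39% and 3.47% and 1.46%, 1.96% and 1.98%, again without overlap of the library values (4.67% ± 1.05 and 1.80% ± 0.295, SD, n = 3 each, exact permutation p = 0.1, the smallest possible). The intervals of SwDI/TWT replicate 3 (2.07 to 5.43) and SwDI/TKO replicate 3 (1.06 to 3.37) overlapped. Membership rests on Sst counts and on a UMI of Gad1 or Gad2. Fewer cells of this type thus cannot be told apart from less Sst, Gad1 or Gad2 RNA per cell.

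**Figure D3:**
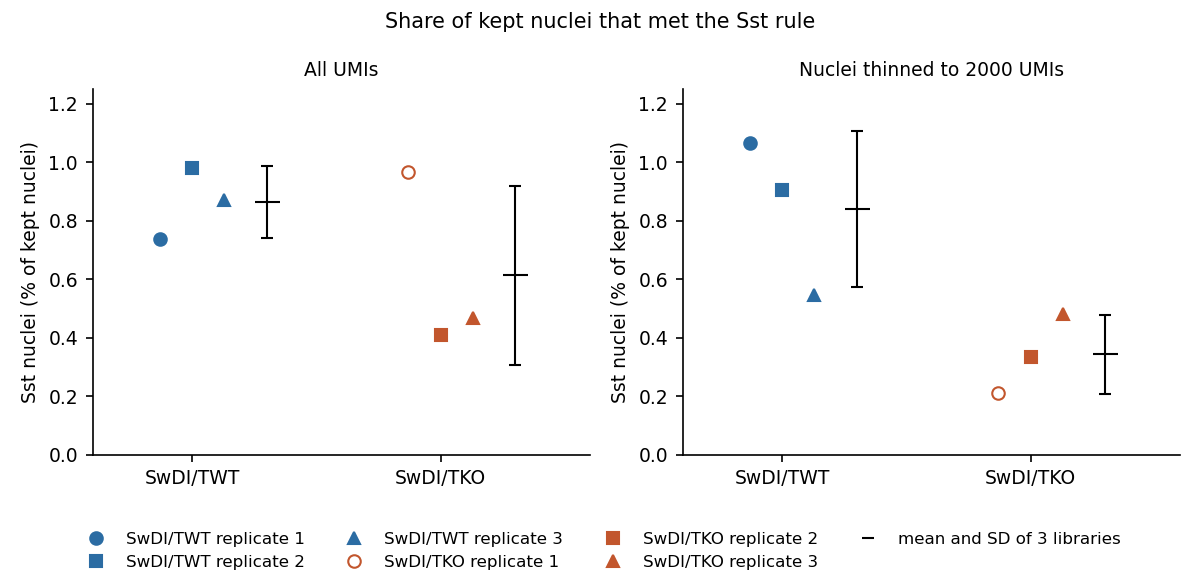
Sst nuclei as a share of kept nuclei (%) in each library, before and after thinning to 2000 UMIs, with SwDI/TWT and SwDI/TKO libraries as points. SwDI/TKO replicate 1 falls from 0.965% to 0.211%, and after thinning all SwDI/TKO libraries lie at or below 0.482% and all SwDI/TWT libraries at or above 0.545%.

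Type genes within the Sst nuclei were compared by the share of nuclei that held them. After thinning to 2000 UMIs, Npy was detected in 65.8% ± 7.73 of Sst nuclei in SwDI/TWT and 62.1% ± 30.7 in SwDI/TKO, and in 79.6% of the latter without replicate 1. Nos1 was detected in 17.3% ± 5.75 and 17.7% ± 9.15, and Calb1 in 30.1% ± 1.45 and 30.5% ± 5.96. The gap was larger than the SD of either group for Crhbp, with 34.6% ± 9.13 and 21.9% ± 8.90 (SD, n = 3, exact permutation p = 0.3). The same held for Chodl, with 6.98% ± 3.96 and 2.20% ± 2.73, and for Cbln4, a secreted synapse organizer, with 5.57% ± 2.32 and 1.35% ± 2.34 (SD, n = 3, exact permutation p = 0.2 each). Calb2 and Pvalb were in 3.04% ± 2.95 and 4.40% ± 3.88 of Sst nuclei in SwDI/TWT and in none in SwDI/TKO (SD, n = 3, exact permutation p = 0.4 each). None of the 14 type genes passed, with a smallest Benjamini-Hochberg adjusted p of 0.933, and 3 libraries against 3 could not have reached a raw p under 0.1.

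The second comparison asked which genes differed with Trem2 genotype inside the Sst nuclei. UMIs were summed over the Sst nuclei of each library and tested with edgeR's quasi-likelihood test, and no gene of 2689 was called at an adjusted p under 0.05 (0% called; 260 genes, 9.67%, had an unadjusted p under 0.05; DESeq2 also called 0, with 242). The smallest adjusted p was 0.499. Without a filter on low counts, edgeR called 389 of 17193 genes, 386 of them higher. Without SwDI/TKO replicate 1, edgeR called 2 of 2951 genes (0.0678%; 186, or 6.3%, at an unadjusted p under 0.05), Resp18 lower and Txndc16 higher, while DESeq2 called 0, with 50 genes at an unadjusted p under 0.05. Values below are normalized CPM, which correct for library composition, listed for SwDI/TWT and then SwDI/TKO in the order of replicates.

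Resp18 (chr1:75272199-75278415, minus strand), an endocrine-specific protein of the secretory granule pathway, had the smallest p of the genes lower in SwDI/TKO. It stood at 543, 546 and 537 in SwDI/TWT and at 174, 175 and 152 in SwDI/TKO, from 54, 65 and 64 and from 64, 10 and 13 UMIs. All 3 SwDI/TKO libraries lay below all SwDI/TWT libraries, and the values within each group were close together. The log2 difference was -1.69 (SE 0.34, edgeR adjusted p = 0.499), and -1.75 without SwDI/TKO replicate 1 (SE 0.38, edgeR adjusted p = 0.0301), where DESeq2 gave an adjusted p of 0.453. Over all settings tried the adjusted p ran from 0.0195 to 0.856. The share of Sst nuclei with a Resp18 UMI was 54.5%, 54.9% and 60.9% in SwDI/TWT and 45.9%, 41.2% and 36.8% in SwDI/TKO.

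Outside the Sst nuclei, Resp18 was lower and overlapped between groups. Other GABAergic nuclei held 65.4, 133 and 130 CPM in SwDI/TWT and 68.0, 65.2 and 115 CPM in SwDI/TKO. The genotype difference in Sst nuclei was not separable from that in Vip nuclei after correction (interaction log2 -1.51, SE 0.44, edgeR adjusted p = 0.999; adjusted p = 0.851 without SwDI/TKO replicate 1).

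Txndc16 (chr14:45133465-45220328, minus strand), of the thioredoxin domain family, stood at 60.3, 75.6 and 84.0 in SwDI/TWT and at 139, 701 and 105 in SwDI/TKO. The high value of SwDI/TKO replicate 2 came from 40 UMIs, of which 30 (75%) lay in a single nucleus. Its log2 difference was 2.31 without SwDI/TKO replicate 1 (SE 0.47, edgeR adjusted p = 0.0222), 1.95 with all libraries, and 0.78 without SwDI/TKO replicate 2, and its adjusted p ran from 0.0127 to 0.856 over the settings tried.

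The other genes with the smallest p among those lower in SwDI/TKO were not called. They were Nsa2 and Gtpbp4 (ribosome assembly), Rpl37 and Rpl27 (large ribosomal subunit), Cisd1 (mitochondrial outer membrane), Ddrgk1 (endoplasmic reticulum) and Alkbh1 (a nucleic acid demethylase), with log2 differences of -1.20 to -1.72. Nsa2, for example, stood at 201, 126 and 118 in SwDI/TWT and 35.3, 52.6 and 58.3 in SwDI/TKO. Without SwDI/TKO replicate 1 each remained lower, with edgeR adjusted p of 0.516 or more. With an Sst limit of 10 UMIs as well, SwDI/TKO replicate 2 held 9 Sst nuclei and was left out. SwDI/TKO replicate 3 then stood alone against SwDI/TWT, and the log2 difference of Gtpbp4 was -6.56.

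On the higher side, also uncalled with the filter, stood Ap3b1 (an adaptor subunit for vesicle sorting), Ube3c (a ubiquitin ligase), Rasgrf2 and Nf1 (Ras regulators), Rabep1 (endosome fusion) and the adhesion genes Cntn4 and Lrrc4c. Ube3c was the most even, with 121, 101 and 118 in SwDI/TWT and 250, 245 and 257 in SwDI/TKO (log2 difference 1.15, SE 0.32, edgeR adjusted p = 0.499). Ap3b1 stood at 10.0, 42.0 and 16.8 against 120, 105 and 105, on 1 to 44 UMIs per library. Cntn4 and Lrrc4c rested on SwDI/TKO replicate 1: the log2 difference of Cntn4 was 3.63 with that library and 1.51 without it, and that of Lrrc4c 3.11 and 1.01. Without a filter on low counts 4 of these genes passed, with edgeR adjusted p of 1.29e-08 for Cntn4, 8.60e-07 for Lrrc4c, 0.0347 for Rabep1 and 0.0469 for Ap3b1. Over the settings tried the highest adjusted p of each of the 4 was 0.9997.

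Genes of the dense-core vesicle leaned lower in SwDI/TKO, without a call. Of 27 listed neuropeptides and secreted modulators 11 passed the filter, and their median log2 difference was -0.51, against 0.03 over all genes tested (-0.32 against 0.00 without SwDI/TKO replicate 1, for 13 genes). In 5 of them (Crhbp, Npy, Scg2, Scg3 and Vgf) all SwDI/TKO libraries lay below all SwDI/TWT libraries, as did 6.88% of all genes, and Nxph1 lay above. Without SwDI/TKO replicate 1 the same 5 lay below, against 11.5% of all genes. Other GABAergic nuclei held Crhbp at 38.7, 24.2 and 31.3 CPM in SwDI/TWT and 9.94, 15.9 and 20.8 CPM in SwDI/TKO. They held Vgf at 181, 182 and 186 CPM and at 67.0, 79.0 and 150 CPM. In these other GABAergic nuclei Crhbp and Vgf thus also lay lower in SwDI/TKO, while Npy and Scg3 overlapped between groups. Over all kept nuclei outside the Sst nuclei, Crhbp again lay lower and Npy overlapped. Vgf overlapped there, at 137, 136 and 108 CPM in SwDI/TWT and 41.3, 51.3 and 115 CPM in SwDI/TKO. Scg3 did not, at 66.8, 52.7 and 51.6 CPM and 50.9, 45.1 and 49.4 CPM. In Vip nuclei Scg3 stood at 292, 282 and 337 normalized CPM and at 172, 85.0 and 252, also without overlap. The share of all genes that separate the groups outside the Sst nuclei was not counted. The list was chosen with earlier results of these data known.

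Npy stood at 3607, 4231 and 3451 in SwDI/TWT and at 519, 2033 and 2309 in SwDI/TKO (log2 difference -1.22, SE 0.55, edgeR adjusted p = 0.499). All 3 SwDI/TKO libraries were lower, with SwDI/TKO replicate 1 lowest, and without it the difference was -0.80 (edgeR adjusted p = 0.722). Crhbp stood at 653, 369 and 386 and at 193, 210 and 222 (log2 difference -1.17, SE 0.37, edgeR adjusted p = 0.499; -1.11 without SwDI/TKO replicate 1). Vgf (chr5:137026392-137033351, plus strand), for a precursor of secreted peptides induced by neuronal activity, stood at 623, 1133 and 647 and at 291, 105 and 583 (log2 difference -1.28, edgeR adjusted p = 0.499). The granin gene Scg3 stood at 131, 151 and 151 and at 97.8, 35.0 and 70.0, the value of 35.0 from 2 UMIs. Sst itself was also lower in these libraries, and across the 17 to 74 Sst nuclei of a library log2 counts of Npy and Sst, which share depth, had a Pearson r of 0.470 to 0.768. The part of the Sst limit in the Npy difference was not tested.

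**Figure D4:**
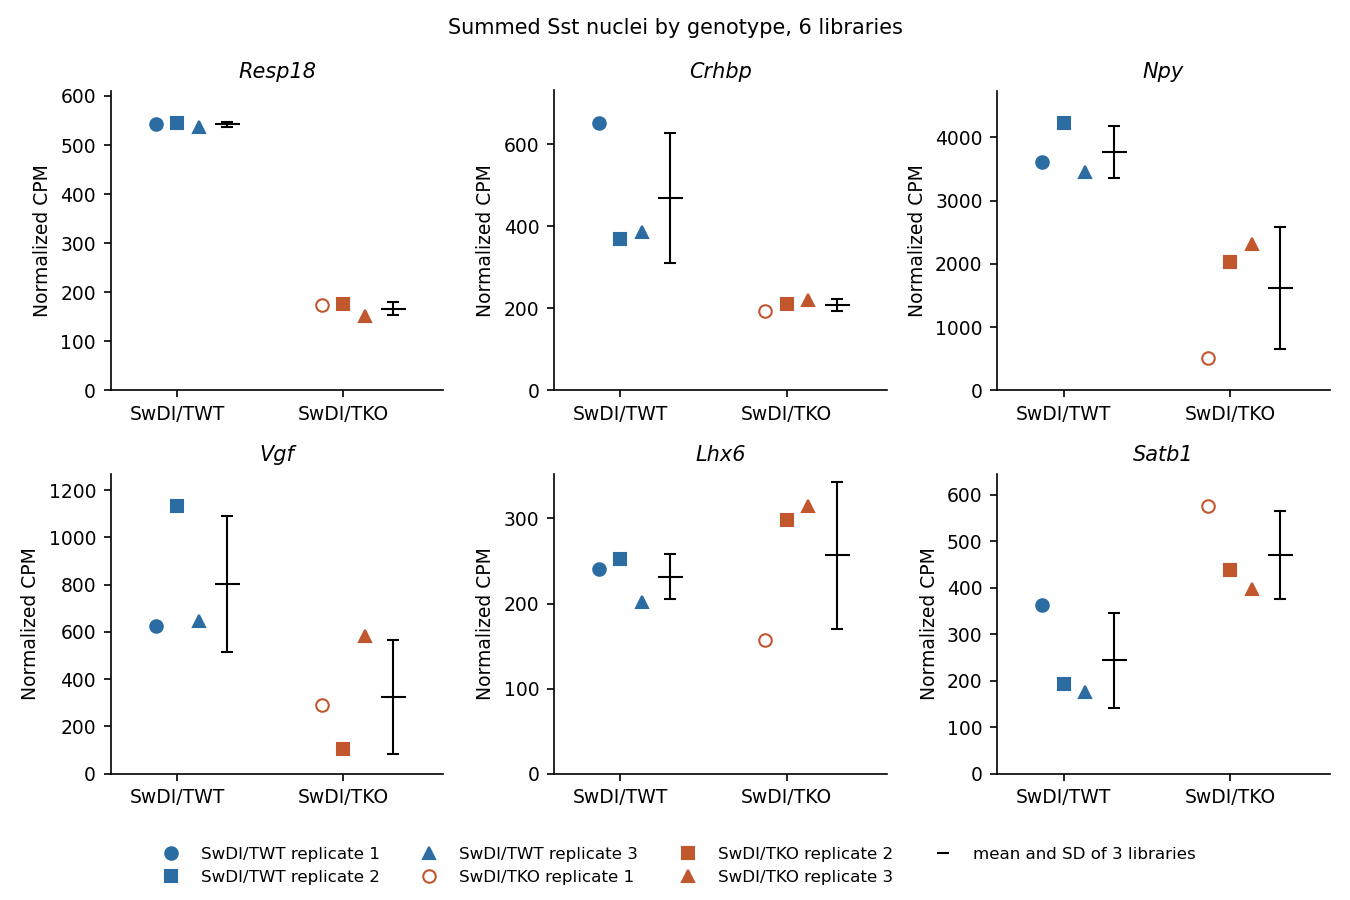
Normalized CPM in Sst nuclei per library for genes named in the genotype comparison, SwDI/TWT and SwDI/TKO side by side. Resp18 lies at 537 to 546 in SwDI/TWT and 152 to 175 in SwDI/TKO, and Crhbp at 369 to 653 and 193 to 222.

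The factors that build this cell type showed no call. Lhx6 stood at 241, 252 and 202 in SwDI/TWT and at 158, 298 and 315 in SwDI/TKO (log2 difference 0.10), with overlapping groups. Satb1 was higher in all SwDI/TKO libraries, at 362, 193 and 176 against 576, 438 and 396 (log2 difference 0.96, SE 0.40, edgeR adjusted p = 0.499; 0.77 without SwDI/TKO replicate 1). Sox6 and Nxph1 (a secreted neurexin ligand) were dominated by SwDI/TKO replicate 1, with log2 differences of 1.84 and 1.53 that were 0.50 and 0.21 without it (without a filter on low counts Sox6 passed, edgeR adjusted p = 0.0146). Over the 11 tested of 20 listed transcription factors the median was 0.10, and over the 5 tested of 8 genes for GABA synthesis, packaging and uptake it was 0.01.

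Synaptic and channel lists were highest in SwDI/TKO replicate 1. The 29 glutamate receptor and synapse genes summed to 12642 to 12723 CPM in SwDI/TWT and to 35438, 13078 and 13524 CPM in SwDI/TKO, and the 31 channel genes to 4233 to 4448 CPM and to 12544, 4728 and 5100 CPM. The other SwDI/TKO libraries thus also lay above SwDI/TWT in both sums, by less. These sums were not corrected for library composition. Of all genes tested, 12.8% separated the groups in either direction, and 22.6% did without SwDI/TKO replicate 1. Of 25 tested glutamate receptor and synapse genes, 23 were higher with it (median log2 difference 0.68) and 10 without it (-0.06). Of 10 GABA receptor genes 7 were higher with it and 1 without it, and of 21 ion channel genes 17 and 14. None of these genes was called.

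Genes of amyloid processing and degradation, 12 tested of 22, were lower in 11 and higher in 1 (median -0.41), and 11 of 14 were lower without SwDI/TKO replicate 1 (median -0.24). App, the mouse amyloid precursor gene, stood at 854, 1041 and 1058 and at 1100, 771 and 863 (log2 difference -0.11), with overlapping groups. How transcripts of the transgene were counted is not given. Apoe, a lipid carrier made mostly by glia, stood at 502, 218 and 84.0 and at 139, 158 and 117 (log2 difference -0.95, edgeR adjusted p = 0.540), and Clu, for clusterin, at 141, 260 and 218 and at 103, 70.1 and 128 (log2 difference -1.01). Lists of energy and protein metabolism were not called either: 10 of 11 mitochondrially encoded genes were higher (median 0.39), 10 of 14 nuclear genes of oxidative phosphorylation were lower (-0.13) but 10 of 15 were higher without SwDI/TKO replicate 1 (0.07), and the 17 ribosomal protein genes had a median of -0.10 that was 0.26 over 20 genes without SwDI/TKO replicate 1.

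To place the Sst nuclei among interneurons, they were compared with 169 Vip nuclei of the same 6 mice, chosen by at least 3 Vip UMIs and the same limits, with the mouse as a block. Of 1548 genes, edgeR called 311 (20.1%), 155 higher in Sst nuclei (10%) and 156 lower (10.1%). Without SwDI/TKO replicate 1 it called 176 of 1322 (13.3%), without the block 75, and DESeq2 called 187. Vip interneurons come from the caudal ganglionic eminence and mostly inhibit other interneurons.

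Transcription factors marked the divide. Sox6 stood at 221 to 2532 normalized CPM in Sst nuclei and had UMIs in Vip nuclei of SwDI/TKO replicate 1 alone, at 18.6 (log2 difference 7.10, SE 0.35, edgeR adjusted p = 6.79e-16). Satb1 was higher (3.09) and so was Lhx6 once SwDI/TKO replicate 1 was left out. Lower in Sst nuclei were Prox1 (-5.42), Nfib (-3.57) and Zeb2 (-1.67), factors of caudal or broader interneuron development. Of 7 tested factors on the list of medial ganglionic eminence genes, 2 rose and 4 fell (Zeb2, Npas3, Dlx1 and Npas1). Sox6, Satb1, Prox1, Nfib and Zeb2 differed in the stated direction in 6 of 6 mice.

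Peptide genes set the classes apart in both directions. Npy stood at 4177, 4898 and 3979 in the Sst nuclei of SwDI/TWT and 635, 2383 and 2711 in those of SwDI/TKO, against 0 to 125 in Vip nuclei (log2 difference 4.63, SE 0.27, edgeR adjusted p = 1.96e-14). Crhbp, at 236 to 756, had no UMI in any Vip nucleus and was at least 50.5-fold higher, taking 3 UMIs over all Vip nuclei as the floor. Nxph1 was higher by 4.64 (3.21 without SwDI/TKO replicate 1). Of the 13 tested peptide genes 3 rose and 4 fell (2 fell of 11 without SwDI/TKO replicate 1), among the latter Penk (-3.03), the enkephalin precursor, and Cck (-4.40), cholecystokinin. Beyond that list Cxcl14, a chemokine gene (-6.21), and Tac2, a tachykinin precursor (-5.71), fell in 6 of 6 mice.

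Receptors, channels and matrix genes followed. Nos1 (4.41), Grin3a (3.15), Cacna2d2 (2.82), Col25a1 (2.68), Col11a1 (3.89), Man1a (2.45), Calb1 (3.81) and Gria3 (2.51) were higher in Sst nuclei, as log2 differences, and Adarb2, an RNA-editing family gene that marks caudal interneurons, was the strongest lower gene (-7.11, SE 0.23, edgeR adjusted p = 1.45e-20). Adarb2 stood at 0 to 336 in Sst nuclei and at 3240 to 31415 in Vip nuclei, with both maxima in SwDI/TKO replicate 1. Also lower were the receptor genes Kit (-5.30), Egfr (-6.02), Cnr1 (-3.04), Sorcs3 (-3.66) and Ptprz1 (-2.91). Of 21 tested glutamate receptor and synapse genes 9 rose and 7 fell, and of 14 ion channel genes 5 rose, among them Cacna1e (1.16), and 0 fell. Without SwDI/TKO replicate 1 only Cacna1e of these channel genes was called. None of 10 mitochondrially encoded and 10 ribosomal protein genes was called.

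**Figure D5:**
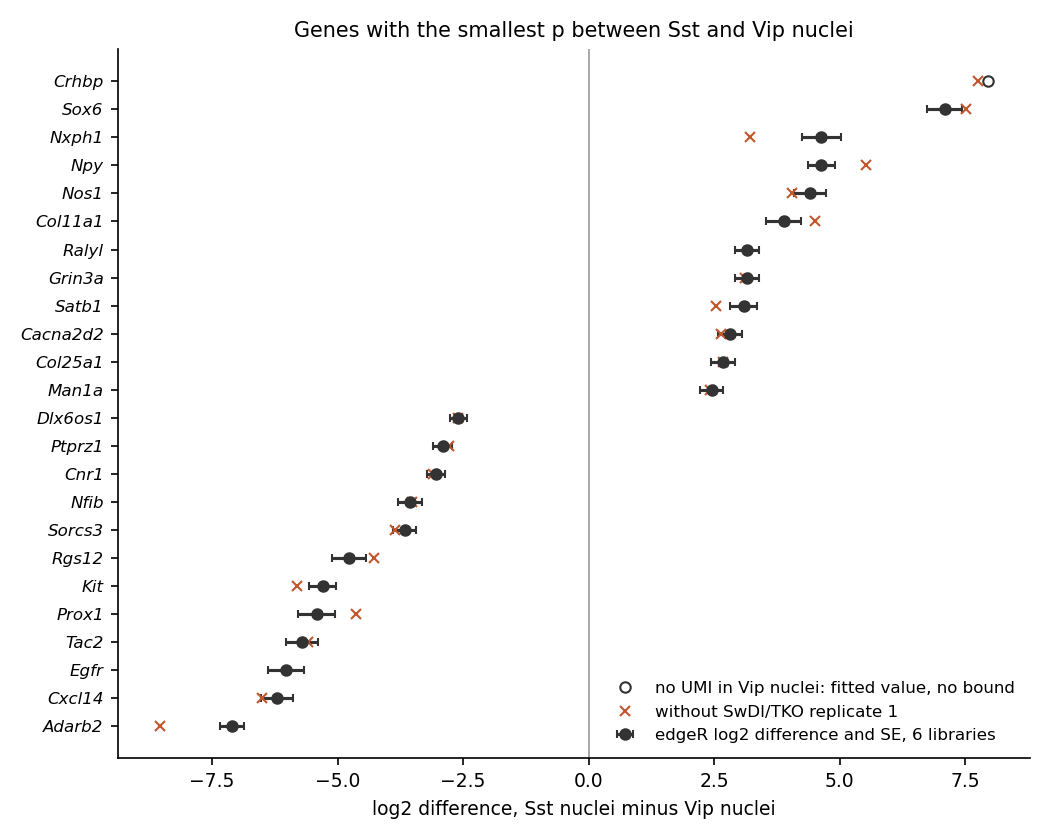
Log2 difference between Sst and Vip nuclei (horizontal axis) for genes named in that comparison, with all 6 libraries and without SwDI/TKO replicate 1. Sox6 (7.10) and Crhbp lie farthest to the Sst side and Adarb2 (-7.11) farthest to the Vip side.

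Pvalb interneurons share the medial ganglionic eminence with Sst interneurons, and 61 nuclei were chosen by at least 3 Pvalb UMIs, at most 1 Sst UMI and the same limits. Only 3 libraries (SwDI/TWT replicates 1 and 2 and SwDI/TKO replicate 1) held 10 or more of them and entered the comparison. Of 2634 genes edgeR called 376 (14.3%), 229 higher in Sst nuclei (8.69%) and 147 lower (5.58%), with the mouse as a block, and 120 of 1851 without SwDI/TKO replicate 1. With all 6 libraries and no minimum it called 289 of 1304, without the block 8, and DESeq2 called 115. Values below are normalized CPM in the order of those 3 libraries.

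Peptide and synapse genes were higher in Sst nuclei. Npy stood at 3551, 4200 and 481 against 0, 40.3 and 7.40, the latter from 3 UMIs in all, and Vgf at 613, 1125 and 270 against 86.5, 101 and 7.40 (log2 difference 3.63, SE 0.40, edgeR adjusted p = 8.25e-18). All 5 called of 11 tested peptide genes were higher (Npy, Vgf, Crhbp, Pam and Nxph1). Nos1 stood at 267, 250 and 388 in Sst nuclei and had no UMI in Pvalb nuclei, so it was at least 23.5-fold higher with a floor of 3 UMIs over those nuclei. Grin3a stood at 465, 400 and 1396 against 57.7, 0 and 59.2 (log2 difference 4.45, edgeR adjusted p = 2.69e-26), and Synpr, a synaptic vesicle gene, at 396, 208 and 1419 against 0, 0 and 37.0 (5.40). Reln (5.33), Unc13c (4.13, presynaptic release), Col25a1 (4.02), Calb1 (3.92), Cacna1e (3.33), Brinp3 (3.29), Chrm3 (3.18) and Crhbp (3.17) were higher too, in 3 of 3 mice. With all 6 libraries Unc13c (2.44), Brinp3 (2.18), Crhbp (2.05), Calb1 (2.82) and Col25a1 (3.12) differed less. Of the 3 libraries compared, Unc13c and Synpr had UMIs in the Pvalb nuclei of SwDI/TKO replicate 1 alone. Of 24 tested glutamate receptor and synapse genes 13 rose and 1, Erbb4, fell (-2.44).

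Lower in Sst nuclei were single genes for channels, release and GABA receptors. Kcnc1, a fast potassium channel, stood at 682, 542 and 260 against 1558, 1773 and 939 (log2 difference -1.61, SE 0.22, edgeR adjusted p = 6.07e-12), and Kcna1 was lower by a like amount (-1.80). Syt2, the calcium sensor of fast GABA release, stood at 0, 0 and 2.52 against 260, 423 and 311 (-7.03). The GABA receptor gene Gabrd (-3.17) fell in 3 of 3 mice, as did Cemip (-4.62), Sox5 (-3.05), Trps1 (-2.83), Srrm4 (-2.58), Dock4 (-2.55) and Tmem108 (-2.46). Of 24 tested ion channel genes 7 rose and 7 fell.

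Mitochondrially encoded genes were higher in Sst than in Pvalb nuclei, with 8 of 10 called. The cytochrome oxidase gene mt-Co1 stood at 2987, 2650 and 2895 against 2250, 746 and 1738 (log2 difference 0.92, SE 0.18, edgeR adjusted p = 1.30e-05; 1.05 without SwDI/TKO replicate 1). These transcripts are made outside the nucleus.

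Whether the genotype difference in Sst nuclei departed from that in other interneurons was tested as an interaction. Against Pvalb nuclei the interaction was called for 1 of 2634 genes (0.038%), Ralyl, an RNA-binding protein gene. It stood at 445, 275 and 2575 in Sst nuclei and at 433, 60.5 and 185 in Pvalb nuclei of the same 3 libraries, with SwDI/TKO replicate 1 as the only SwDI/TKO library, so the call compares that library with the others and does not test the genotype. With 5 libraries, without SwDI/TKO replicate 1 and with no minimum of nuclei, 0 of 969 genes was called (edgeR, 46 at an unadjusted p under 0.05). Against Vip nuclei of all 6 libraries 0 of 1548 genes was called (0%; edgeR, 60 at an unadjusted p under 0.05), and the value of Ralyl was 0.29 (edgeR adjusted p = 0.999).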

How the data were processed

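Nuclei of 6 mouse frontal lobes, isolated by detergent lysis, were profiled with droplet-based 3′-end RNA sequencing, per the labels' protocols. The deposited values are unnormalized UMI counts (32285 genes by barcode). Cell Ranger 6.1.2 or 7.0.0 made them, per the file headers, and the build was mm10 per the submitters' processing notes. Neither the counting of introns nor the gene annotation is stated there. Samples were grouped by genotype from their titles, and replicates were numbered in accession order, which pairs no mice. Gene positions are from GENCODE M21 (99.6% of gene identifiers matched).

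Counts were summed over the nuclei of a class in each library and tested with edgeR 4.0.16 (quasi-likelihood test, TMM scaling, filterByExpr, Benjamini-Hochberg adjustment over all genes tested, threshold 0.05, SE derived from the test statistic), with the mouse as a block between classes, where both sums come from 1 library. DESeq2 1.42.0 was an alternative. Sums needed 10 nuclei. Shares were compared by exact permutation over libraries, and intervals are 95% Clopper-Pearson. Thinning drew 2000 UMIs per nucleus. Genes the rules used (Sst, Gad1, Gad2, Slc17a7, Slc17a6, Rgs9, Adcy5, Vip and Pvalb) stayed in the fits and in the counts of genes tested and called, and no test of them is given. Scrublet (scanpy 1.11.5) marked under 0.04% of nuclei in 2 libraries and so had not worked there, and doublets were not removed. The scripts were tested on simulated data.

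Genes were named by rule: all called, up to the 12 smallest p per direction (for genotype, with under 5 called, the 8 smallest), leaving out unnamed loci, mitochondrial and sex-linked genes, plus up to 4 per list and the markers. Some genes that met it are not reported here. Members, rule and lists were chosen with earlier results of these data known.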

Additional observations from a re-analysis of the deposited data

Results flagged for a closer look

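The genotype difference of Ralyl was larger in Sst than in Pvalb nuclei by 3.08 on the log2 scale (SE 0.68, edgeR adjusted p = 0.0175), a difference between classes under the same contrast. SwDI/TKO replicate 1 was the only SwDI/TKO library in that fit, so its SE and p describe that library and do not test the genotype. Ralyl had 45, 33 and 29 UMIs in the Sst nuclei of SwDI/TWT and 1022, 17 and 10 in SwDI/TKO, and 15, 3 and 10 and 25, 0 and 2 in Pvalb nuclei. The high count is in SwDI/TKO replicate 1, the library of greater depth and other software version, and the value cannot be told apart from that library. With all 6 libraries it was 3.47 (edgeR adjusted p = 0.000341), again with SwDI/TKO replicate 1 included. With the 5 other libraries it was 2.04 (SE 1.18, edgeR adjusted p = 0.995).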

How the results depend on the processing

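No paired analysis was possible because the genotype groups hold different mice whose numbers follow accession order. Between classes the mouse was the block. Without that pairing edgeR called 75 genes against Vip and 8 against Pvalb nuclei, and 2 for the interaction with Pvalb nuclei. Leaving out each library gave 0 to 2 genotype calls, 176 to 381 against Vip nuclei and 120 to 380 against Pvalb nuclei, the lowest in both class comparisons without SwDI/TKO replicate 1. The interaction with Pvalb nuclei on 3 libraries had no residual degrees of freedom with a library left out. Without a filter on low counts the calls were 389 by genotype, 853, 575 and, for the interaction, 0. DESeq2 called 187 against Vip and 115 against Pvalb nuclei, and at 2000 UMIs per nucleus 85 and 160 were called, on fewer genes.

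Alternatives chosen after seeing the data were 5 libraries against Pvalb nuclei (178 calls, and 0 for the interaction) and, without SwDI/TKO replicate 1, other scaling (2 genotype calls), Sst limits of 10 (7 calls) and 3 UMIs (1 call). A limit of 5 Pvalb UMIs left too few nuclei for a value. The Resp18 log2 difference stayed between -1.62 and -2.02 over all alternatives run.

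These directions changed, and the cause was not tested. The Lhx6 genotype difference was -0.11 to 0.39 with a library left out (-0.034 without SwDI/TKO replicate 2), -0.10 and -0.11 with Sst limits of 3 and 10, and -0.28 at 2000 UMIs. App was -0.28 to 0.0023 with a library left out. Nxph1 was -0.11 without SwDI/TKO replicate 1 and with an Sst limit of 10, where SwDI/TKO replicate 3 was the only SwDI/TKO library. Genotype differences in shares (percentage points) changed sign for Npy (0.644 at 1000 UMIs; -14.8 to 13.8 with a library left out), Nos1 (-2.78 and -2.25 with Sst limits of 3 and 10; -3.86 to 5.25) and Calb1 (-0.749 at 1000 UMIs; -2.36 with a limit of 3; -2.69 to 3.24). With 17 to 74 Sst nuclei per library, genes of few UMIs could not be tested.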
